A study of Homo sapiens with 6 samples.

Results

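The genes described here are the ADAM, ADAMTS, ADAMTSL and MMP genes, 67 of the 19111 autosomal protein-coding genes of the annotation. They were chosen by a rule on names, as every autosomal protein-coding gene whose symbol is one of these stems followed by a number. The choice was made with earlier results of these data known. The set comprises 20 ADAM, 19 ADAMTS, 5 ADAMTSL and 23 MMP genes. CRLM1, a long noncoding RNA annotated as LINC01767, was pulled down from crosslinked chromatin of HCT116 cells, a human colorectal carcinoma line, and the attached DNA was sequenced. This assay, ChIRP-seq (chromatin isolation by RNA purification with sequencing), was done in 3 groups of 2 replicates: CRLM1 antisense oligos, antisense oligos against bacterial LacZ as the negative control, and Input, the genomic DNA of the same cell line. All 6 libraries came from this 1 line, so the lists describe 1 cell line only, and the labels do not say whether the replicates were separate cultures. A peak is a stretch of the genome where the peak caller found more reads in the CRLM1 pull-down than in a control. Each replicate was compared with each control, which gave 4 lists, called here by control and replicate number: Input 1 with 9251 autosomal peaks, LacZ 1 with 10234, Input 2 with 16638 and LacZ 2 with 361. They hold positions and scores but no reads, so the depth is unknown, and neither expression of these genes nor the identity of the cells could be checked from them.

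ADAM proteins are membrane-anchored metalloproteases that release the outer parts of growth factors, cytokines and adhesion molecules from the cell surface, although several members have lost the catalytic site. ADAMTS proteins are secreted relatives with thrombospondin repeats that process procollagens, proteoglycans, von Willebrand factor and other matrix proteins, and ADAMTSL proteins share their ancillary domains but have no protease domain. Matrix metalloproteinases (MMPs) cleave collagens, gelatin and other components of the extracellular matrix and are known for their part in tissue remodelling and tumour invasion. Several of these genes are very long, and a long gene has more room for a peak.

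The sequences around 3 peak centres, 100 bases to either side, are given first as examples. The pair from ADAMTS17 marks the only gene with a peak against LacZ in both replicates. The ADAMTSL1 sequence came from the peak with the highest score among these genes in replicate 1. All are from the plus strand of GRCh38. Capitals mark CCCNCCC, a C-rich pattern searched on both strands, which was found in 1 of the 3.
ADAMTS17, LacZ 1, chr15:100041099-100041299: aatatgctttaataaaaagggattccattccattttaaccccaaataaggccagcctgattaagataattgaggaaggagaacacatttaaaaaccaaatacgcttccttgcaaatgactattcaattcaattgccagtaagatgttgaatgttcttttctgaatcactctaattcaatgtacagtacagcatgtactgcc
ADAMTS17, LacZ 2, chr15:100050723-100050923: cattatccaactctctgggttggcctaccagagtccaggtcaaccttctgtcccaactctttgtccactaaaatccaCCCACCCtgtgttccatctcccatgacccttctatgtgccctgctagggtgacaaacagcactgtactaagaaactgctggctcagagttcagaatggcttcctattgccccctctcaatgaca
ADAMTSL1, Input 1, chr9:18700656-18700856: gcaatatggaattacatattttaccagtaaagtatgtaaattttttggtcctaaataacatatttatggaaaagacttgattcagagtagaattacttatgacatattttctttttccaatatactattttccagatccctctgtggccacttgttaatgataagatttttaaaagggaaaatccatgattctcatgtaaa

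A peak in the gene body or the 5 kb upstream was found for 11 of the 67 genes in Input 1, where 13.6% of all autosomal protein-coding genes had one. In LacZ 1 the count was 12, with 21% of all genes. In Input 2 it was 24, with 23% of all genes. In LacZ 2 only ADAMTS17 had a peak, with 1.07% of all genes. Of the 67 genes, 26 had a peak in at least 1 list, where 36.1% of all genes did and gene length, taken up below, gave 32 genes. A peak in 3 or more lists was found for 9 of the 67 genes, where 6.64% of all genes had one and length gave 10.1 genes. None of the 67 was in all 4 lists, where 0.44% of all genes were and length gave 0.746 genes. Read against the background of each list, the shares of 16.4% in Input 1 and 35.8% in Input 2 were above it, and the share of 17.9% in LacZ 1 was below it.

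**Figure D1:**
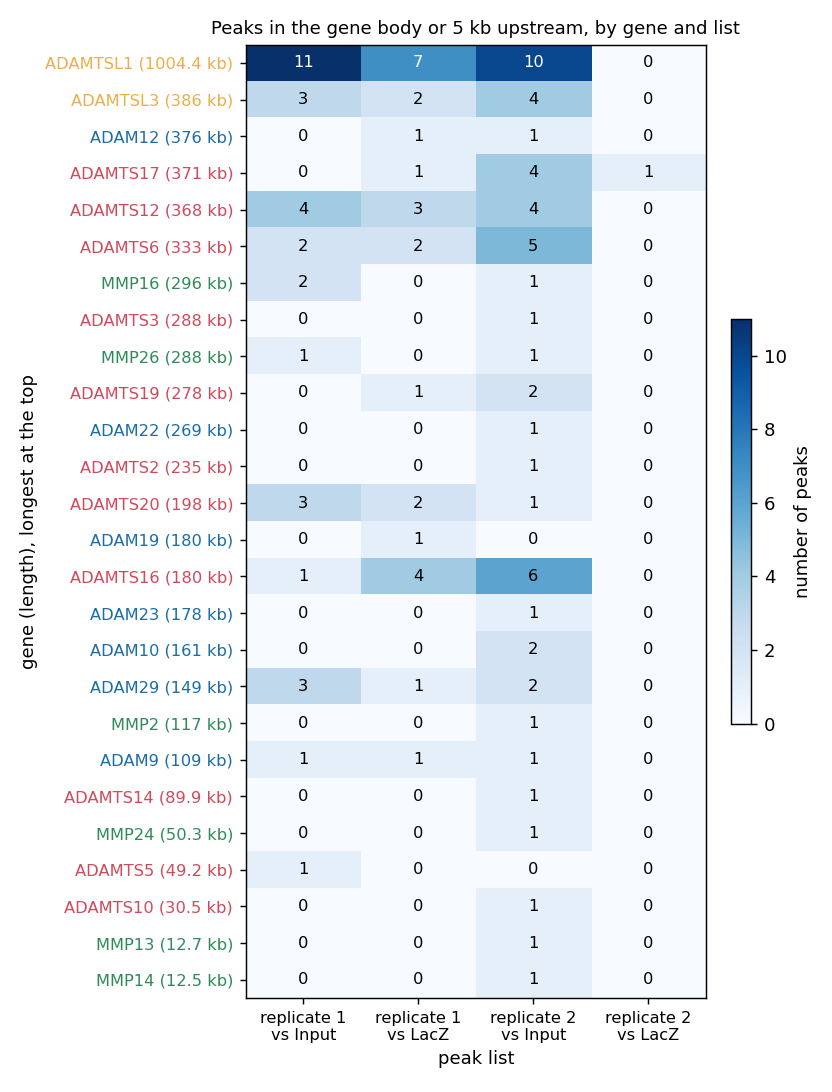
Number of peaks in the gene body or 5 kb upstream for the 26 genes with a peak in at least 1 list (rows, longest gene at the top, names coloured by family: blue ADAM, red ADAMTS, yellow ADAMTSL, green MMP) in each of the 4 lists (columns). ADAMTSL1 held the most peaks, 11, 7, 10 and 0, and the column of LacZ 2 holds 1 peak, in ADAMTS17.

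Gene length moved with these counts. The 67 genes had a median length of 45 kb, from 2.98 kb for ADAM30 to 1004.4 kb for ADAMTSL1, against a median of 27.9 kb over all genes. All genes were therefore put into 20 bins by the length of the gene plus its 5 kb upstream, and the share of genes with a peak in each bin was summed over the 67 genes to give a number from length. That number was 16 in Input 1, 20.8 in LacZ 1, 23.3 in Input 2 and 1.3 in LacZ 2. The observed counts of 11, 12, 24 and 1 were thus 0.689, 0.578, 1.03 and 0.77 times the number from length. Against Input the replicates thus gave 0.689 and 1.03, with binomial 95% intervals of 0.356 to 1.15 and 0.703 to 1.39. These intervals cover counting error only and treat the 67 genes as independent draws with 1 shared probability. The genes differ in length, some are neighbours, and both lists count the same 67 genes, so the intervals are rough. The interval made in this way was 0.31 to 0.942 in LacZ 1 and 0.0195 to 4.15 in LacZ 2. None of these intervals was read as a test. With scores of at least 60 the values against Input were 0.901 and 1.01. Against LacZ they were then 0.442 in replicate 1 (5 genes, with 11.3 from length) and 0 in replicate 2 (0.384 from length). With 1 list for each replicate and control no test was made.

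Input 2 is a longer list than Input 1. With it cut to its 9251 strongest peaks, 17 of the 67 genes had a peak, 0.992 times the 17.1 from length, a setting chosen after seeing the data.

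Among the 13 genes longer than 200 kb with their upstream part, 13 had a peak in at least 1 list, and 93.5% of all genes of that length did. Among the 21 genes under 20 kb, the exceptions with a peak were MMP13 and MMP14, and 9.62% of all genes that short had one. Between 50 and 100 kb, 3 of 10 genes had a peak against 52.4% of all genes of that length. The longest genes without a peak in any list were ADAMTS18 (187 kb), ADAM32 (178 kb), ADAMTS9 (172 kb), ADAM18 (146 kb) and ADAM2 (94.5 kb). Of all genes in the length bin that holds ADAMTS18, ADAM32 and ADAMTS9, 65.7% had a peak in Input 2.

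**Figure D2:**
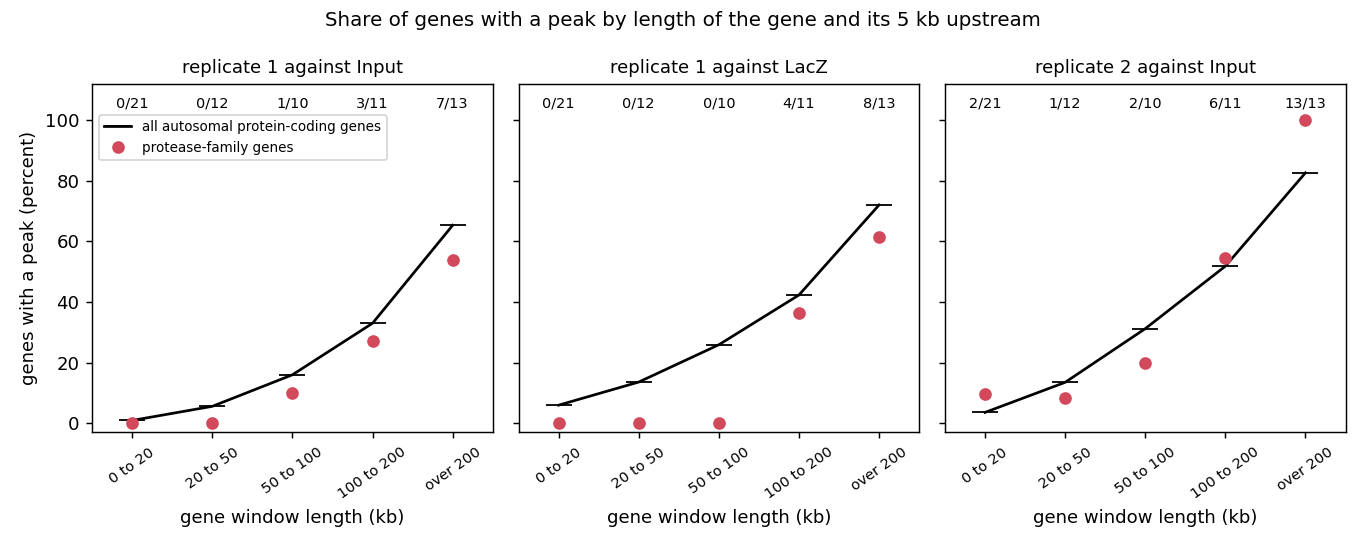
Percent of genes with a peak (vertical axis) by length of the gene plus 5 kb upstream in kb (horizontal axis) in 3 of the lists, for all autosomal protein-coding genes (black line) and for the ADAM, ADAMTS, ADAMTSL and MMP genes (red points, with the number having a peak over the number in the class above). In both lists of replicate 1 the red points lie below the line in every class, while in Input 2 all 13 of 13 genes over 200 kb had a peak.

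Counted by peaks rather than genes, the 67 genes with their upstream parts covered 7.98 Mb. They held 32 peaks in Input 1, or 4.01 per Mb with a 95% Poisson interval of 2.74 to 5.66 that covers counting error only. All protein-coding genes held 3.14 per Mb in that list. In LacZ 1 they held 26 peaks, 3.26 per Mb (2.13 to 4.77) against 4.1 over all genes. In Input 2 they held 54 peaks, 6.77 per Mb (5.08 to 8.83) against 5.83. In each of these 3 lists the value over all genes lay inside the interval of the 67 genes. ADAMTSL1 alone held 11 of the 32, 7 of the 26 and 10 of the 54 peaks. The intervals take peaks as independent and leave such clustering in 1 gene out. The 32 and 26 peaks of replicate 1 share the same pull-down, and 15 of them had identical coordinates in both lists. In replicate 2 the single peak against LacZ was also 1 of the 54 against Input.

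In 3 lists the 5 ADAMTSL genes held the densest peaks of the 4 families. Their values were 9.47 per Mb in Input 1 (5.18 to 15.9), 6.09 in LacZ 1 (2.78 to 11.6) and 9.47 in Input 2 (5.18 to 15.9). The ADAMTS genes came next, with 3.61 in Input 1 (1.8 to 6.45) and 4.26 in LacZ 1 (2.27 to 7.29). In LacZ 2 the ADAMTSL genes held 0 peaks and the ADAMTS genes 1. The ADAMTSL peaks lay in ADAMTSL1 (1004.4 kb) and ADAMTSL3 (386 kb) alone. The other 3 genes, ADAMTSL2 (43.4 kb), ADAMTSL4 (11.6 kb) and ADAMTSL5 (8.58 kb), had no peak in any list. The ADAM genes had the lowest density in Input 2, 3.51 per Mb (1.52 to 6.92), with ADAMTS genes at 8.53 (5.57 to 12.5) and MMP genes at 5.11 (1.88 to 11.1).

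Of the 20 ADAM genes, 2 had a peak in Input 1, 4 in LacZ 1 and 6 in Input 2, where length gave 5.17, 6.78 and 7.79. A group of 9 with a catalytic site was counted, namely ADAM8, ADAM9, ADAM10, ADAM12, ADAM15, ADAM17, ADAM19, ADAM28 and ADAM33. Of these 9, 4 had a peak in at least 1 list and length gave 4.72. ADAM10, the sheddase that cleaves Notch receptors, had 2 intronic peaks, both in Input 2. The stronger, at chr15:58619258-58619727 in intron 11, scored 94.57 and ranked 408 among the 16638 peaks of that list, and the other, in intron 1, scored 51.41. ADAM17, which releases tumour necrosis factor, had none. ADAM9, another sheddase, had 1 peak in each of 3 lists, in intron 20 (69.00), intron 18 (51.20) and intron 14 (55.70) in the order of Input 1, LacZ 1 and Input 2. No 2 of these were at the same place. ADAM12 had 1 peak in LacZ 1 (50.08) and 1 in Input 2 (62.56), both in intron 1, and ADAM19 had 1 in LacZ 1 (56.43, intron 3). ADAM8, ADAM15, ADAM28 and ADAM33 had none.

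Of the 8 ADAM genes without a catalytic site, 3 had a peak in at least 1 list and length gave 5.76. ADAM22 and ADAM23, neuronal receptors of the secreted LGI proteins, each had 1 peak in Input 2. That of ADAM22 covered coding exon 14 and scored 50.37, near the floor of 50 of the score, and that of ADAM23 lay in intron 8 (51.22). ADAM29, a gene of the testis, had 3 peaks in Input 1 (74.94, 60.73 and 53.14), 1 in LacZ 1 (53.10) and 2 in Input 2 (59.60 and 50.53). All 3 places of replicate 1 and the stronger of replicate 2 lay 11.8 to 78.1 kb upstream of the start of its canonical transcript, inside longer annotated transcripts. Counted by canonical transcripts, ADAM29 was lost from both lists of replicate 1. ADAM2, ADAM7, ADAM11, ADAM18 and ADAM32 had no peak, nor did ADAM20, ADAM21 and ADAM30, the remaining 3 genes of the family. These 3 were counted in neither group, and length gave 0.603 of them in at least 1 list.

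Of the 19 ADAMTS genes, 5 had a peak in Input 1, 6 in LacZ 1, 10 in Input 2 and 1 in LacZ 2, with 6.78, 8.15, 9.43 and 0.544 from length. The procollagen N-propeptidases ADAMTS2, ADAMTS3 and ADAMTS14, which trim fibrillar procollagens, each had 1 intronic peak, in Input 2 only. Their scores were 62.93, 52.60 and 62.17. Length gave 1.93 of these 3 genes in that list and 1.42 in Input 1, where none had a peak.

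ADAMTS12, which cleaves cartilage oligomeric matrix protein (COMP), spans 368 kb at chr5:33523535-33892019. It had 4, 3 and 4 peaks in Input 1, LacZ 1 and Input 2, all intronic. The 3 peaks against LacZ in replicate 1 were also in the list against Input at identical coordinates. In intron 19 a peak of replicate 1 (51.62 against Input) lay 122 bp from one of replicate 2 (64.87), the closest peaks of the 2 replicates in any of the 67 genes. ADAMTS7, which also cleaves COMP, had no peak in 52.3 kb.

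ADAMTS1, ADAMTS4, ADAMTS5, ADAMTS8, ADAMTS9, ADAMTS15 and ADAMTS20 cleave aggrecan, versican or related proteoglycans, and 2 of these 7 had a peak in at least 1 list where length gave 2.93. ADAMTS20 had 3 peaks in Input 1 (51.03 to 56.14), 2 in LacZ 1 at coordinates identical to 2 of these (63.12 and 57.25), and 1 in Input 2 (62.71), which lay 5.51 kb from the nearest of replicate 1. ADAMTS5, the main aggrecanase of cartilage, had 1 peak, in intron 1 in Input 1 (53.59). ADAMTS13, which cleaves von Willebrand factor, had none.

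ADAMTS17, which is linked to fibrillin-rich connective tissue, spans 371 kb at chr15:99971437-100342005. It was the only one of the 67 genes with a peak in both replicates against LacZ, where 0.586% of all genes had one and length gave 0.895 genes. Its peak at chr15:100050652-100050994 in intron 17 was called in Input 2 (102.85, the highest score among the 67 genes, rank 227 of 16638) and at the same coordinates against LacZ (50.88, rank 318 of 361). The peak of LacZ 1 lay in intron 18 (61.87), 9.33 kb away, and Input 1 had none in the gene. Of the 2 ADAMTS17 sequences, the one of replicate 2 had a GC content of 50.2% and 1 match to CCCNCCC, and that of replicate 1 had 34.3% and no match. Input 2 held 3 more peaks in this gene, with scores of 50.23 to 64.72.

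ADAMTS16 spans 180 kb at chr5:5140330-5320304 and had 1, 4 and 6 peaks in Input 1, LacZ 1 and Input 2. The peak in intron 3 of replicate 1 was shared by both its controls (76.16 and 69.37). Intron 18 held 3 peaks of LacZ 1 (53.66 to 83.09) and 2 of Input 2 (51.00 and 97.29), none overlapping. Its peak at chr5:5137142-5137503 (66.63, Input 2) lay upstream, at -3.01 kb from the gene start, and overlapped the divergent transcript ADAMTS16-DT, so it cannot be assigned to one of the 2 genes. It was the only peak in the upstream part of any of the 67 genes. ADAMTS6 had 2, 2 and 5 peaks, and 1 of those of replicate 2 covered an exon of a transcript other than the canonical one (52.16). ADAMTS19 had 0, 1 and 2 peaks, all in intron 21, and ADAMTS10, which binds fibrillin, had 0, 0 and 1 (80.33). ADAMTS18 had none.

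ADAMTSL1, which encodes a secreted protein without a protease domain, spans 1004.4 kb at chr9:17906563-18910950 and had 11, 7, 10 and 0 peaks in Input 1, LacZ 1, Input 2 and LacZ 2. All were intronic. In Input 1, 8 of the 11 lay beyond the midpoint of the gene, with the 2 strongest in intron 13 (100.68) and intron 9 (95.49). In LacZ 1, from the same pull-down, 4 of the 7 lay beyond it. In Input 2, 3 of the 10 did, and the strongest lay in intron 4 (89.15). The median position was 75.9% of the gene length in Input 1 and 39.9% in Input 2. Over all protein-coding genes 50.9% and 51.8% of the peaks of these lists lay beyond the midpoint. No peak of one replicate overlapped one of the other in this gene, and the nearest pair was 2.53 kb apart. The canonical transcript covers 437 kb at the 3′ end, and 7 of the 10 peaks of replicate 2 lay upstream of its start.

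ADAMTSL3 (386 kb) had 3, 2 and 4 peaks. Both peaks of LacZ 1 were also in its list against Input at identical coordinates, and the one at chr15:83771793-83772026 in intron 3 scored 60.17 and 70.51. In Input 2 the 4 scores ran from 54.27 to 64.42, and the lowest of these covered coding exon 11.

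**Figure D3:**
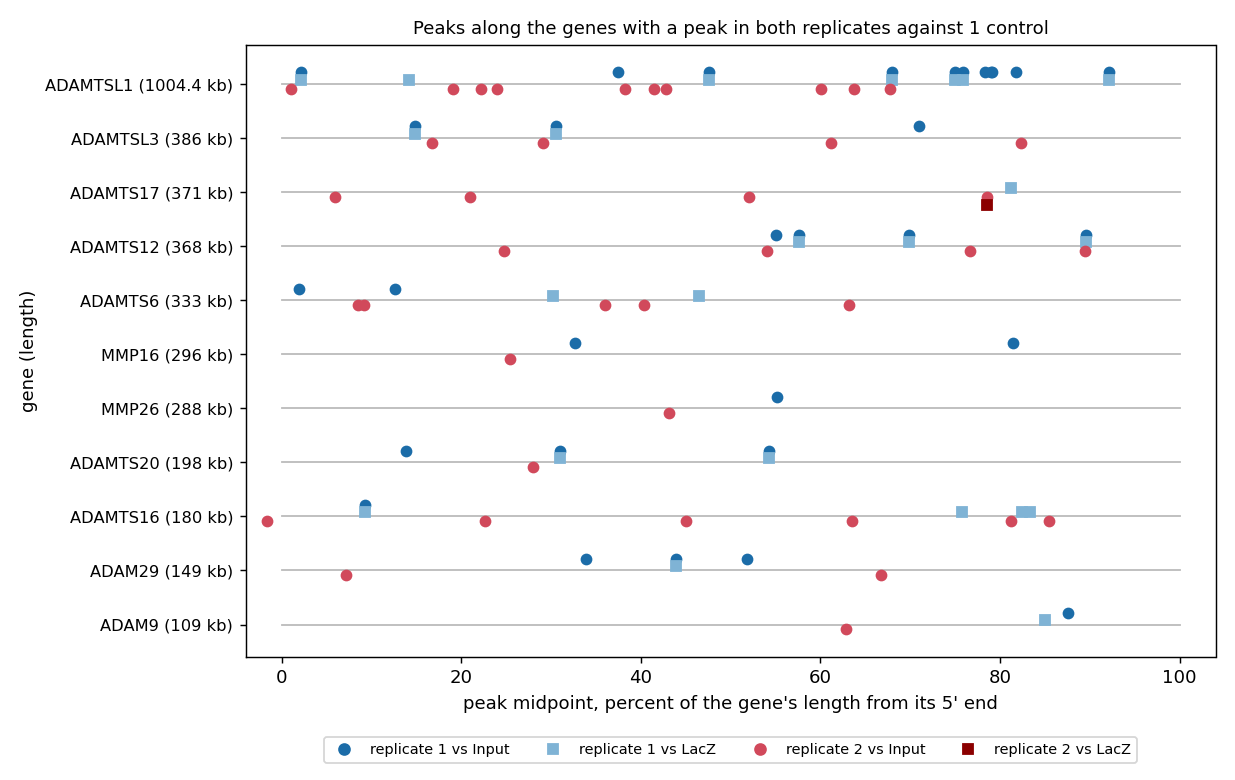
Peak midpoints along the 11 genes with a peak in both replicates against the same control, as percent of the gene length from its 5′ end (horizontal axis); each grey line is 1 gene, points above it are replicate 1 (dark blue Input, light blue LacZ) and points below it replicate 2 (red Input, dark red LacZ). Squares under circles mark places that both controls of a replicate shared. In ADAMTS12 the blue and red points near 90% are 122 bp apart, and no blue peak overlaps a red one in any gene.

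Of the 23 MMP genes, 2 had a peak in Input 1, 0 in LacZ 1, 6 in Input 2 and 0 in LacZ 2. Length gave 2.42, 3.92, 4.03 and 0.221. The family thus had no peak in either list against LacZ with 5 kb upstream. With 10 kb upstream MMP12 gained a peak in LacZ 1. MMP16, a membrane-type MMP, had 2 peaks in Input 1 (59.46 and 59.99) and 1 in Input 2 (53.92), the nearest pair being 21 kb apart. MMP26 (288 kb), a matrilysin, had 1 in each (64.72 and 59.85), 34.6 kb apart. The former overlapped the olfactory receptor gene OR51H1, which lies within an intron of MMP26.

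The other 4 MMP genes had 1 peak each, in Input 2. MMP14, the membrane-type enzyme that activates pro-MMP2, had an intronic peak that scored 50.33, and MMP24, also membrane-type, one that scored 51.69 and overlapped the antisense gene MMP24OS. The peak of MMP2, a gelatinase, scored 59.60, lay 17.9 kb upstream of the start of its canonical transcript and overlapped MMP2-AS1. Counted by canonical transcripts, MMP2 was lost from this list. MMP13, a collagenase, had its peak (62.77) over coding sequence of exon 2, in a gene of 12.7 kb.

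MMP13 belongs to the cluster of 9 MMP genes between positions 102520508 and 102955732 of chromosome 11, which also holds the collagenases MMP1 and MMP8, the stromelysins MMP3 and MMP10, the matrilysin MMP7, and MMP12, MMP20 and MMP27. It was the only gene of the cluster with a peak, where length gave 1.43 genes over all 4 lists. MMP9, MMP11, MMP15, MMP17, MMP19, MMP21, MMP23B, MMP25 and MMP28 had none.

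**Figure D4:**
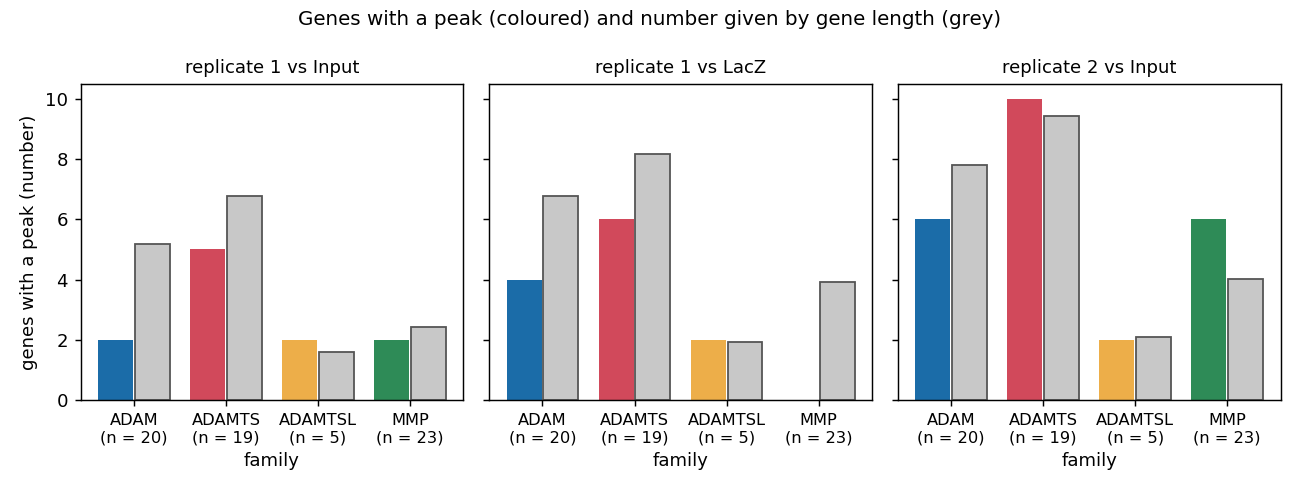
Number of genes with a peak (coloured bars) and number given by gene length (grey bars) for each family (horizontal axis, n is the number of genes) in 3 lists; bars start at 0 and carry no error bars, since each is 1 count of 1 list. The MMP genes had 0 against 3.92 from length in LacZ 1 and 6 against 4.03 in Input 2.

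Both replicates against Input had a peak in 10 of the 67 genes, where 8.26% of all genes did and length gave 12. They were ADAM9, ADAM29, ADAMTS6, ADAMTS12, ADAMTS16, ADAMTS20, ADAMTSL1, ADAMTSL3, MMP16 and MMP26. In none of the 10 did a peak of replicate 1 overlap one of replicate 2 by 1 bp or more, and over all 1578 genes with a peak in both replicates 2.47% had such a shared site. Within 1 kb the count was 1 of 10 (ADAMTS12), with 5.89% of all genes. Within 10 kb it was 4 of 10, with ADAMTSL1, ADAMTS20 and ADAMTSL3 added, and 30.9% of all genes. These 10 genes were therefore called in both replicates without an overlapping site, as were most of the 1578 genes.

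By chromosome, the count on chromosome 5 was near its number from length and that on chromosome 8 below it, with no test. The 6 genes on chromosome 5 (ADAM19, ADAMTS2, ADAMTS6, ADAMTS12, ADAMTS16 and ADAMTS19) all had a peak in at least 1 list, where length gave 5.46. They held 18 of the 54 peaks of Input 2, 11.2 per Mb, and the protein-coding genes of chromosome 5 as a whole held 9.05 per Mb against 5.83 over all chromosomes. Of the 7 genes on chromosome 8, ADAM9 and MMP16 had a peak and ADAM2, ADAM7, ADAM18, ADAM28 and ADAM32 had none, where length gave 5.14 genes. The protein-coding genes of chromosome 8 held 5.66 peaks per Mb in Input 2, close to the overall value, and 5.06 in Input 1, above the overall 3.14. These 2 chromosomes were singled out after the values were seen. With the peak density of each gene's own chromosome in place of the length bins, the numbers from length were 17.9, 20.6, 24.8 and 1.48 in Input 1, LacZ 1, Input 2 and LacZ 2, beside the observed 11, 12, 24 and 1.

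By position, all 32 and all 26 peaks of the 2 lists of replicate 1 lay in introns, as 91.8% and 82.8% of peaks in all genes did. In Input 2, 49 of 54 were intronic (90.7%, with 88.8% over all genes), 3 had their midpoint in coding sequence (5.56%, with 2% over all genes), 1 in another exon (1.85%, with 1.2%) and 1 upstream (1.85%, with 4.78%). The upstream part of 5 kb held 2.28% and 7.8% of the peaks of all genes in Input 1 and LacZ 1, and none of the 32 and 26 of the 67 genes.

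The scores, the peak caller's own measure of strength, were close to those of the lists. Their medians in the 67 genes were 56.59, 56.89 and 59.6 in Input 1, LacZ 1 and Input 2, beside list medians of 56.11, 57.97 and 57.73. A score of 100 or more was reached by 1 peak in ADAMTSL1 (100.68) and 1 in ADAMTS17 (102.85), whereas the highest autosomal scores of those lists were 1505.61 and 1670.06.

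**Figure D5:**
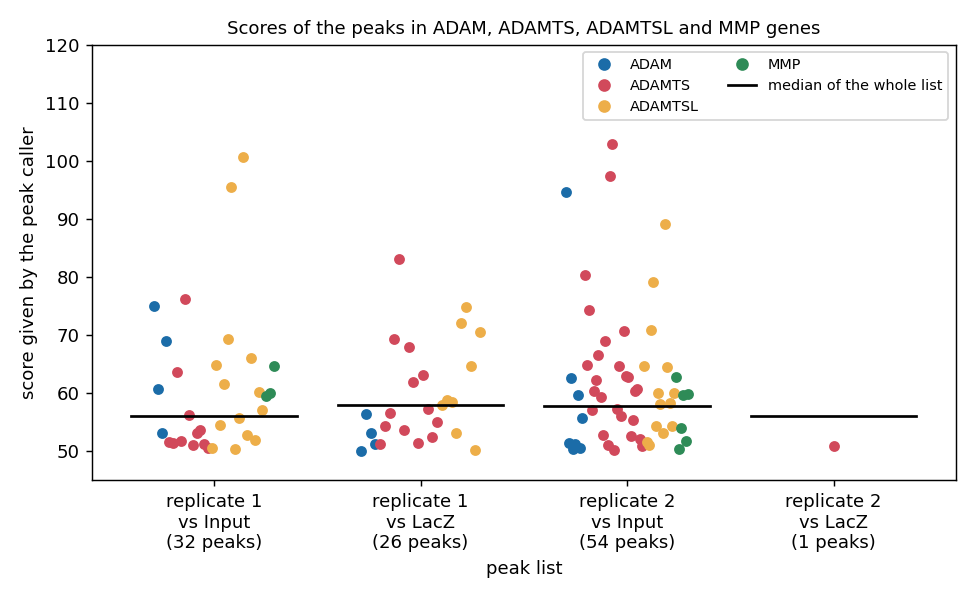
Score given by the peak caller (vertical axis, starting at 45) for each peak in the 67 genes, by list (horizontal axis) and coloured by family; the black line is the median of all autosomal peaks of that list. Most points lie near the line, and the highest are ADAMTSL1 at 100.68 in Input 1 and ADAMTS17 at 102.85 in Input 2.

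The peaks of these genes had a median GC content of 37.3%, 40% and 39% in the same 3 lists, beside 38%, 41.3% and 38.8% over all autosomal peaks. CCCNCCC was found in 2 of 32, 3 of 26 and 3 of 54 whole peaks (6.25%, 11.5% and 5.56%), and in 10.2%, 15.3% and 11.9% of all autosomal peaks. A stretch similar to LINC01767 transcripts was found by blastn in 4, 4 and 5 of them (12.5%, 15.4% and 9.26%), and in 8.6%, 13.1% and 10.8% of all. The longest exact match to 1 of the 9 CRLM1 probes was 12 bases in any peak of the 67 genes, and 59 bases in the lists as a whole.

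A set of 29 genes around these proteases was counted in the same way. They comprise inhibitors such as TIMP2, TIMP3, TIMP4, RECK and A2M, partners of ADAM10 and ADAM17 such as 6 tetraspanins and the inactive rhomboids RHBDF1 and RHBDF2, the plasminogen system, and other metalloproteases of the matrix. In the 4 lists 4, 9, 7 and 1 of the 29 had a peak, with 4.69, 7, 7.86 and 0.371 from length. TIMP2, TIMP3 and TIMP4, the tissue inhibitors of MMPs, had none. RECK, a membrane-anchored MMP inhibitor, had 1, 1, 3 and 0 peaks, with top scores of 52.77, 77.93 and 63.66. The proteoglycan gene SPOCK1 (623 kb, with 1, 1, 4 and 0) and the procollagen C-proteinase relative TLL1 (231 kb, with 2, 2, 3 and 0) were also in 3 lists. A peak in 3 or more lists was thus found for 3 of the 29 genes, where 6.64% of all genes had one and length gave 2.37. BMP1, the procollagen C-proteinase itself, was the only one with a peak in LacZ 2 (69.38), and it had one in Input 2 (98.60) but none in replicate 1.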

How the data were processed

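According to the study's methods, the authors trimmed reads with cutadapt, aligned them to GRCh38 with Bowtie2 and called peaks of the CRLM1 and LacZ pull-downs with MACS2 against Input, at a stated version and q-value cutoff, keeping CRLM1 peaks that no LacZ peak overlapped. The files and labels differ from this: each list pairs 1 CRLM1 library with the Input or the LacZ library of the same number. The deposited lists give each peak's start, end and score. The authors' score has no stated scale, and the names, columns and floor of 50 resemble an older MACS, so it is unsettled whether the stated version and cutoff apply to these lists. The lists hold no read counts, hence no depth, and no other per-sample columns. Genes were taken from GENCODE release 44, on autosomes 1 to 22. A peak was counted where it overlapped the gene or its 5 kb upstream by at least 1 bp. Chromosome lengths of the build were checked against the peaks. Counting used Python 3.11.15 with numpy and scipy, and sequence similarity blastn 2.17.0 with word size 11 and E value 0.01. The counting was tested on simulated peaks. Members and gene lists were chosen with earlier results of these data known. Genes are named if called in both replicates or 3 lists, in replicate 2 against LacZ, among the 3 highest scores of a list, outside introns, or among the 5 longest with or without a peak; all others are named once. The groups are not samples with a measured spread, so no test was made. Some peak sequences are not reported here.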

Additional observations from a re-analysis of the deposited data

How the results depend on the processing

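No paired analysis was possible because the results are counts of genes per list and come from no test. Of 87 recomputed values, 72 stayed within 1.5 times the count, or within the binomial interval of the ratio to length. These intervals were wide, 0.356 to 1.15 in Input 1 and 0.0195 to 4.15 in LacZ 2. The 72 is therefore no measure of robustness. No ratio was tested, so there was no called direction that could turn. The ratio in Input 2, 1.03, fell below 1 with 10 kb upstream (0.985), with the density of the own chromosome (0.967) and with the shortened list (0.992). With peaks at or above the median score, 5 genes had a peak in LacZ 1 and 0 in LacZ 2 (0 times the number from length, and 0 in both replicates). With scores of at least 60, the counts were 7 in Input 1, 5 in LacZ 1, 14 in Input 2 and 0 in LacZ 2 (0 times the number from length). In both replicates they were then 4 against Input and 0 against LacZ. The fewer peaks in these settings lower the counts by construction. Without the 5 longest genes, ADAMTS17 among them, the ratio in LacZ 2 was 0. Genes with a site of both replicates against Input numbered 1 when peaks within 1 kb counted. Genes with a peak in at least 1 replicate numbered 25 against Input and 12 against LacZ; leaving out either replicate gave 11 to 24 and 1 to 12. Over these settings the ratio to length ran from 0.616 to 0.901 in Input 1, from 0.387 to 0.643 in LacZ 1 and from 0.967 to 1.07 in Input 2. With 10 kb upstream, ADAM7 and MMP12 gained a peak in LacZ 1. The canonical transcript and the shortened list were settings chosen after seeing the data. The unknown depth limits every absence to what the authors' threshold could show.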
